A study of Mus musculus with 6 samples.

Results

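The genes described here encode 7 small heat shock proteins (Hspb1, Hspb2, Hspb3, Hspb6, Hspb7, Hspb8 and Cryab) and their co-chaperone Bag3. They were taken by symbol from a table of 13226 genes, and all 8 were present. The group was chosen by an earlier comparison of these same muscles, in which Hspb7 differed between Yap-shRNA and control muscles with DESeq2, so the differences between groups given here for these 8 genes are a description and carry no test. The muscles were tibialis anterior (TA) muscles of male C57BL/6 mice injected at 8 weeks of age and taken 7 days later. Of the 6 muscles, 3 had been injected with AAV6:Yap-shRNA, an adeno-associated virus that carries a short hairpin RNA against Yap, and 3 a control vector. The control is AAV6:LacZ-shRNA in the vector field of the sample records and an empty vector in their titles, which leaves its identity unsettled. The records place the 2 vectors in opposite legs of 3 animals, without saying that a shared number marks an animal. The plasmid used for Yap shRNA also carries eGFP behind a CMV promoter, and the RNA came from whole muscle, so every cell type of the muscle contributes to each value.

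Small heat shock proteins are chaperones that work without ATP. They share an alpha-crystallin domain, assemble into oligomers and hold unfolding proteins until other chaperones refold them or they are degraded. Striated muscle is rich in them, and several sit at the Z-disc, where filaments are under constant strain. Bag3 joins the small heat shock proteins, above all Hspb8, to Hsp70 and steers damaged proteins such as filamin C into autophagy, a route known as chaperone-assisted selective autophagy. The WW domain of Bag3 also binds Lats and Amotl proteins, which are part of the Hippo pathway that restrains Yap. Many chaperone genes are switched on by the heat shock factor Hsf1, which recognises repeats of the letters GAA and their complement.

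Sequences around the starts of the genes are shown first because a single element recurred in most of the genes for which a window was found. RefSeq promoter windows on mouse build GRCm38.p6, from 250 bases before to 50 bases after an annotated start, were found for 6 of the 8 genes (7 windows, as Hspb6 has 2 starts), and Cryab and Hspb2 had none. Distances here are from the RefSeq starts. For Bag3 and Hspb6 these differ from the GENCODE gene starts given further below. The search was for GAANNTTC, a GAA followed by its complement TTC, which reads the same on both strands. This pair is called the inverted heat shock element here, and longer repeats were not searched for. It was present in 5 of the 7 windows, those of Bag3, Hspb1, Hspb3, Hspb6 (1 of its 2 windows) and Hspb8, or 5 of these 6 genes. Of all 32851 windows of the reference, 7.86% held it. In the 250 bases before the start alone it was in 3 of the 6 genes, Hspb1, Hspb3 and Hspb6, and in 6.69% of all windows. The tail-to-tail form TTCNNGAA was in none of the 6 genes and in 8.52% of all windows. The same 8 letters, GAAGTTTC, recurred in 4 of the genes, and 1.21% of all windows hold them on either strand (these letters were searched for after the matches had been seen). A stretch of 30 bases around each match follows, 5′ to 3′ on the strand of the gene, with the element in capitals.
Hspb1, chr5:135887791-135887820, plus strand, 117 bases before the start: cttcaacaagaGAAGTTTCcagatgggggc
Hspb1, chr5:135887811-135887840, plus strand, 97 bases before the start: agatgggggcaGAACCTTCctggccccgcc
Hspb6, chr7:30553170-30553199, plus strand, 120 bases before the second start: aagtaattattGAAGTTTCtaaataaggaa
Hspb3, chr13:113663882-113663911, minus strand, 224 bases before the start: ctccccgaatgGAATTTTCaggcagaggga
Hspb8, chr5:116422844-116422873, minus strand, 2 bases after the first base: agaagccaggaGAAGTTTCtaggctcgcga
Bag3, chr7:128523603-128523632, plus strand, 42 bases after the first base: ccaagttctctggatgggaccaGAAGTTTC

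Of the 6 genes, Hspb7 was the one with neither form of the element in its window. The 250 bases before its start, at chr4:141420529-141420778 on the plus strand, are shown for comparison with Hspb1.
Hspb7: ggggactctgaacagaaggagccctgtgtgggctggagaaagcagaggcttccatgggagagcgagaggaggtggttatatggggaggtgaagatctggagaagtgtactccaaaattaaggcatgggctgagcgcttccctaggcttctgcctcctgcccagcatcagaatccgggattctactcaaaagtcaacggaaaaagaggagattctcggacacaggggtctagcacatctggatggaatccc
The corresponding 250 bases of Hspb1, at chr5:135887669-135887918 on the plus strand, carry the 2 heat shock elements and, closer to the start, the TEAD motif GGAATG, all in capitals. TEAD factors are the DNA-binding partners of Yap.
Hspb1: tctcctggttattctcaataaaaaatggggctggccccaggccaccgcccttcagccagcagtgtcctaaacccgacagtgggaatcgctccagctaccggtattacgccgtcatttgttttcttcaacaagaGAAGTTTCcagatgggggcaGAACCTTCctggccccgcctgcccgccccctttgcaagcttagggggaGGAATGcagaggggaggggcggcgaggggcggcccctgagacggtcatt
The TEAD motif, searched as GGAATG or its complement CATTCC, was in windows of 2 of the 6 genes, Hspb1 and Hspb7, and in 14.7% of all windows. In Hspb7 it lay 3 bases after the first base and read CATTCC, within chr4:141420770-141420799 on the plus strand, where the capitals mark it.
Hspb7: tggaatcccagcCATTCCaacgtacttagg
The E-box CANNTG, to which the myogenic factors bind, was in 4 of the 6 genes and in 72.3% of all windows. Such matches describe letters only and do not show that a factor was bound.

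Messenger RNA was measured as reads counted per gene in polyadenylated RNA, with 11987167 to 12710393 counts per library. Values are given as CPM, a gene's count scaled to a common library size that was adjusted by the TMM method of edgeR. The targeted gene Yap1 was counted 915, 781 and 833 times in the controls and 381, 311 and 495 times after knockdown, which is 46.5% of control in CPM, with a log2 fold change of -1.10 (standard error 0.16). The 2 count models differed on it, DESeq2 giving an adjusted p of 5.85e-07 and the quasi-likelihood test of edgeR one of 0.436. Genes of fast fibres summed to 114800 to 133900 CPM and those of slow fibres to 142.0 to 206.9 CPM, which is the make-up of a fast muscle such as the TA. Matrix genes of fibroblasts and tendon set control 1 (2596 CPM) and Yap-shRNA 3 (2757 CPM) apart from the other 4 muscles (1128 to 1360 CPM), and the log2 fold change of each of the 8 genes is also given without these 2 muscles.

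Hspb7 differed most between the groups, and Cryab and Hspb1 followed at smaller differences. Hspb6, Hspb8 and Bag3 lay slightly higher with Yap-shRNA, and Hspb2 and Hspb3 slightly lower. The log2 fold changes, Yap-shRNA minus control, ran from -0.10 to 0.74 with a median of 0.15 (-0.0029 over all genes), and 6 of the 8 were above 0, as were 48.9% of all genes. The median of the 8 was 0.085 without Yap-shRNA 3 and 0.081 without both control 1 and Yap-shRNA 3. The 3 Yap-shRNA muscles lay above the 3 control muscles for 3 genes, Hspb7, Cryab and Bag3, against 2.56% of all genes, and below them for none of the 8, against 2.71% of all genes. Without control 1 and Yap-shRNA 3 the remaining Yap-shRNA muscles lay above the remaining controls for 4 genes, Hspb1 being the addition, against 17.6% of all genes, and below them for 1, Hspb2, against 17.4% of all genes. edgeR's quasi-likelihood test called 0 of the 8 genes and 0% of the table at an adjusted p of 0.05 (232 genes had an unadjusted p under 0.05). DESeq2 called Hspb7, and 0.0378% of the genes it adjusted, and it was the 1 of 14 alternative settings in which Hspb7 was called. As the group was chosen with this comparison known, nothing is drawn from these shares.

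**Figure D1:**
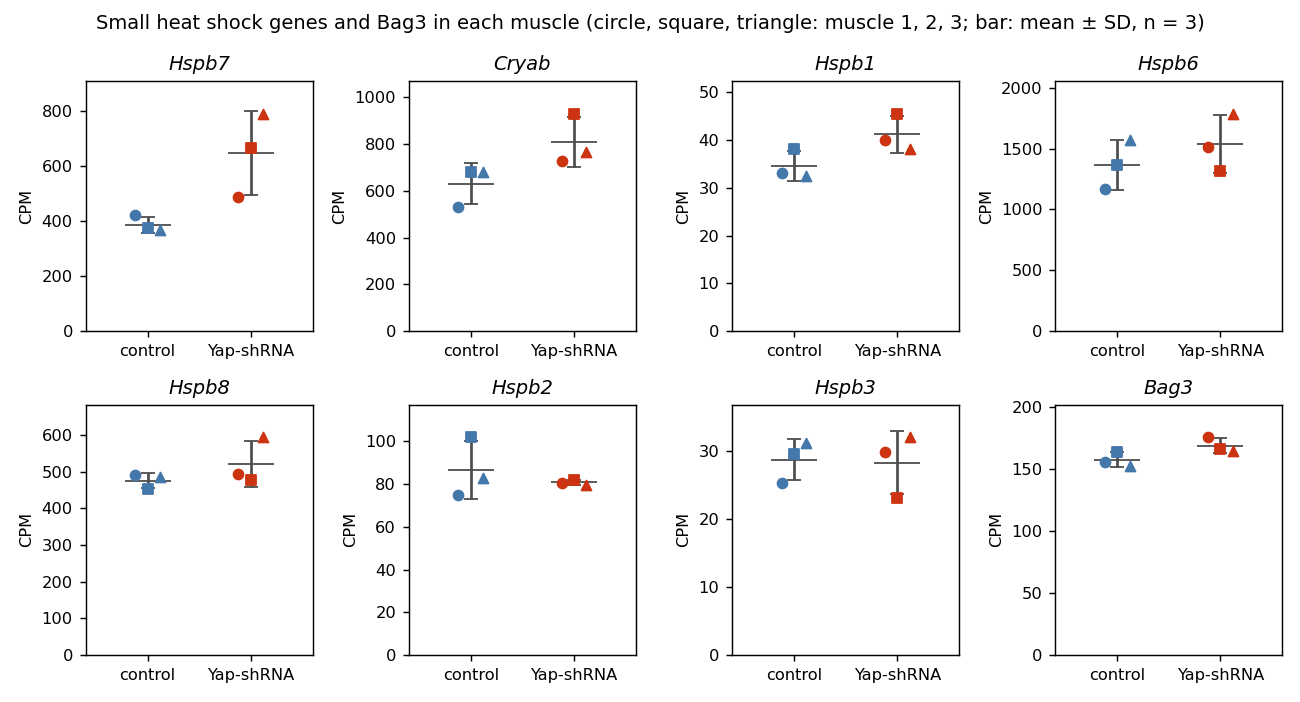
CPM of each of the 8 genes in each muscle (y axis from 0), with control muscles in blue and Yap-shRNA muscles in red, the 3 marker shapes for muscles 1 to 3, and the bar for mean ± SD (n = 3). The Yap-shRNA muscles of Hspb7, from 487 to 790 CPM, lie above its control muscles, from 367 to 421 CPM, while the groups of Hspb1, Hspb2, Hspb3, Hspb6 and Hspb8 overlap.

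Hspb7 (ENSMUSG00000006221; chromosome 4, 141420779 to 141425311 of GRCm38, plus strand) is a heart and skeletal muscle member of the family that binds filamin C and actin filaments. Its annotated transcript has 3 exons and 2769 bases, of which 507 encode the 169 residues of the protein. Counts were 5405, 4463 and 4470 in the controls, and 5807, 8675 and 9903 were found after Yap knockdown. In CPM these were 420.7, 373.2 and 366.8 against 487.2, 666.1 and 789.7. The 3 control muscles were close together and the Yap-shRNA muscles were spread, with Yap-shRNA 1 nearest to control and Yap-shRNA 3 farthest. The means were 386.9 ± 29.5 CPM and 647.7 ± 152 CPM (SD, n = 3), a ratio of 1.67 and a log2 fold change of 0.74 (standard error 0.16). Over the whole table, Hspb7 was among the 102 genes with the highest log2 fold changes. Muscles of the same number, which were not taken as pairs, differed by 0.21, 0.84 and 1.11 on the log2 scale. As the groups did not overlap, any pairing would give positive differences. The order of the Yap-shRNA muscles was not that of their remaining Yap1, which was lowest in Yap-shRNA 2 and highest in Yap-shRNA 3. Without control 1 and Yap-shRNA 3 the log2 fold change was 0.64.

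Cryab (ENSMUSG00000032060; chromosome 9, 50751325 to 50756636, plus strand) encodes alphaB-crystallin, which protects desmin filaments in muscle. Its level was 530.2, 682.5 and 678.8 CPM in the controls, with 728.3, 929.8 and 766.0 CPM after Yap knockdown. The groups did not overlap, with control 1 the lowest muscle and Yap-shRNA 2 the highest. The means were 630.5 ± 86.9 and 808.0 ± 107 CPM (SD, n = 3), with a log2 fold change of 0.36 (standard error 0.14), or 0.28 without control 1 and Yap-shRNA 3. Hspb2 (ENSMUSG00000038086; 50751078 to 50752354, minus strand), its neighbour on the opposite strand, shares 252 exonic bases with Cryab. How strand was treated in counting is not given in the sources used here, so reads from these bases may have been lost or assigned to either gene. Hspb2 binds and activates the myotonic dystrophy kinase and stood at 75.1, 101.9 and 82.9 CPM in the controls, with 80.4, 82.2 and 79.8 CPM after Yap knockdown. All 3 Yap-shRNA values of Hspb2 fell within the control range, with a log2 fold change of -0.10 (standard error 0.12), or -0.19 without control 1 and Yap-shRNA 3.

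Hspb1 (ENSMUSG00000004951; chromosome 5, 135887919 to 135889563, plus strand), the widely expressed family member that caps actin filaments, had 33.1, 38.2 and 32.5 CPM in the controls, with 40.1, 45.5 and 38.0 CPM after Yap knockdown. The groups overlapped in a single pair, Yap-shRNA 3 lying just under control 2, and the log2 fold change was 0.25 (standard error 0.11), or 0.28 without control 1 and Yap-shRNA 3. Same-numbered muscles differed by 0.28, 0.25 and 0.23, the most even of the 8 genes. Hspb3 (ENSMUSG00000051456; chromosome 13, 113662896 to 113663676, minus strand), a gene of 1 exon whose product forms complexes with Hspb2, had 25.3, 29.6 and 31.1 CPM in the controls, with 29.8, 23.0 and 32.0 CPM after Yap knockdown. Its Yap-shRNA muscles held both the lowest and the highest of the 6 values, and its log2 fold change was -0.02 (standard error 0.14), or -0.20 without those 2 muscles.

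Hspb6 (ENSMUSG00000036854; chromosome 7, 30552178 to 30555443, plus strand) encodes a small heat shock protein that is a target of cyclic nucleotide-dependent kinases and acts on contraction in smooth and cardiac muscle. It had 1165, 1361 and 1569 CPM in the controls, with 1515, 1312 and 1787 CPM after Yap knockdown. These values interleaved, with means of 1365 ± 202 and 1538 ± 238 CPM (SD, n = 3) and a log2 fold change of 0.17 (standard error 0.14). Without control 1 and Yap-shRNA 3 the value of Hspb6 was -0.05, a change of sign. The gene overlaps Proser3 by 122 bases and Lin37 by 3 bases on the opposite strand. Hspb8 (ENSMUSG00000041548; chromosome 5, 116408491 to 116422864, minus strand), the partner of Bag3, had 490.4, 452.0 and 485.5 CPM in the controls, with 493.6, 477.5 and 593.9 CPM after Yap knockdown. Yap-shRNA 3 alone stood clear of the control range by more than 10 CPM, and the log2 fold change was 0.13 (standard error 0.11), or 0.05 without it and control 1.

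Bag3 (ENSMUSG00000030847; chromosome 7, 128523616 to 128546981, plus strand; 4 exons, 577 residues) had 155.4, 163.7 and 152.0 CPM in the controls, with 175.2, 165.8 and 164.6 CPM after Yap knockdown. The groups did not overlap, but Yap-shRNA 3 and control 2 were 164.6 and 163.7 CPM. The means were 157.0 ± 6.04 and 168.5 ± 5.79 CPM (SD, n = 3), with a log2 fold change of 0.10 (standard error 0.09), or 0.11 without control 1 and Yap-shRNA 3. Bag3 was the steadiest of the 8 genes: its SD of log2 CPM within groups was 0.052, against 0.194 for the median gene of the table. That median takes in genes with few counts, whereas Bag3 had 1852 to 2159 counts per library, so the 2 values are not like for like. The within-group SD of Hspb7, at 0.261, was the largest of the 8, and most of it came from the Yap-shRNA muscles (0.353, against 0.108 in control muscles).

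**Figure D2:**
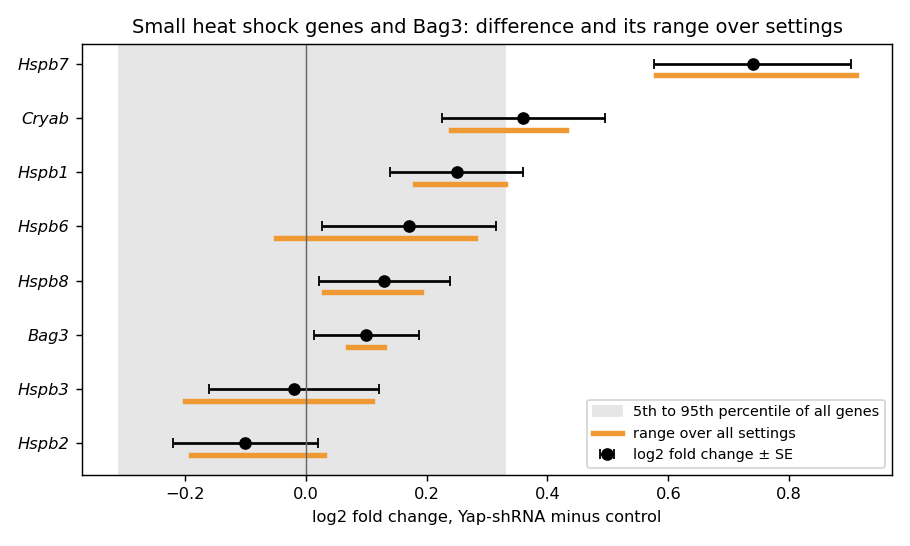
Log2 fold change of each gene, Yap-shRNA minus control (x axis), with its standard error in black, the range over all settings tried in orange, and the 5th to 95th percentile of all genes (-0.31 to 0.33) as a grey band. Hspb7 ranges from 0.58 to 0.91 over the settings tried, and Hspb2, Hspb3 and Hspb6 have ranges that cross 0. The band comes from the main fit and was not computed for the other settings.

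Summed over the 8 genes, the level was 2895, 3202 and 3399 CPM in the controls, with 3550, 3702 and 4251 CPM after Yap knockdown, or 0.303 to 0.330% and 0.353 to 0.419% of all counts. The sum was 1.21 times that of control. Hspb7 made up 39.0% of the difference in the sum while it held 10.8 to 14.5% of the group's counts in control muscles. In Yap-shRNA muscles it held 13.7, 18.0 and 18.6%. The other 7 genes together stood at 2474, 2829 and 3032 CPM in the controls, with 3062, 3036 and 3461 CPM after Yap knockdown, where Yap-shRNA 2 exceeded control 3 by under 10 CPM.

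Levels between genes were compared as CPM per kilobase of merged exon. How counting treated reads that fit several places, or the 252 exonic bases shared by Cryab and Hspb2, is not known. A low value may therefore include reads lost in counting, and the order is one of counted reads. Hspb6 was the highest with 631.3 ± 95.3 CPM per kilobase (SD over the 6 muscles), followed by Cryab (486.3 ± 88.3), Hspb8 (255.8 ± 25.1), Hspb7 (186.8 ± 62.6), Hspb2 (100.4 ± 11.2), Bag3 (63.5 ± 3.21), Hspb1 (36.8 ± 4.67) and Hspb3 (36.5 ± 4.50). Hspb6 exceeded Cryab in 5 of 6 muscles, and their ranges overlapped. Hspb8 exceeded Hspb7 in all 6 muscles, although the highest values of Hspb7 reached the range of Hspb8. Hspb1 and Hspb3 could not be ordered, as Hspb1 was higher in 2 of 6 muscles. The other neighbours, Cryab above Hspb8, Hspb7 above Hspb2, Hspb2 above Bag3, and Bag3 above Hspb1, had ranges that did not overlap. In control muscles alone Hspb7 stood at 139.7 ± 10.6 CPM per kilobase (SD, n = 3), and in Yap-shRNA muscles at 233.9 ± 54.9 (SD, n = 3), still below the mean of Hspb8 in the same muscles (267.5 ± 32.4). The order was the same with the length of the longest coding transcript, which raised Hspb6 to 1065 CPM per kilobase.

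**Figure D3:**
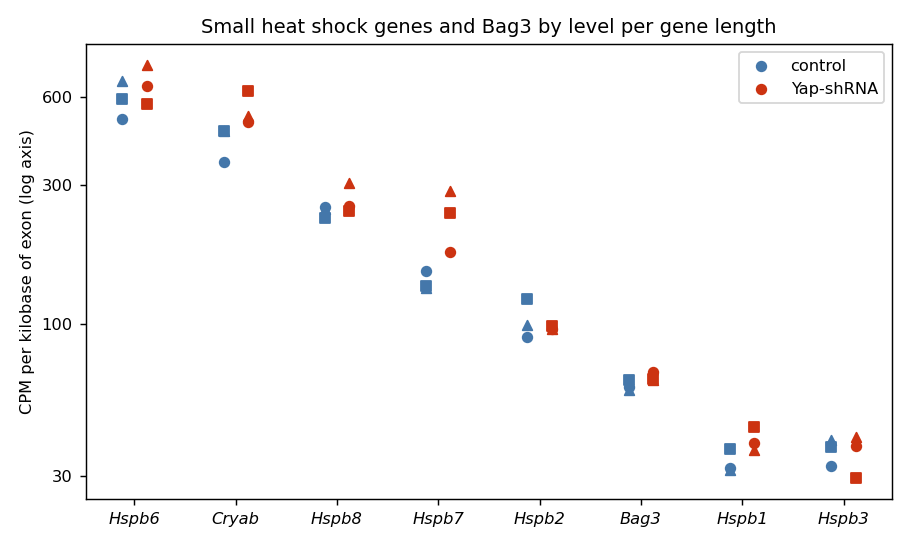
CPM per kilobase of merged exon (log axis) for each gene in the 6 muscles, control in blue and Yap-shRNA in red, marker shapes as muscle numbers. The levels fall from Hspb6 and Cryab to Hspb1 and Hspb3, and Hspb7 is the gene whose red points separate most from the blue ones.

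Genes that work with the group or answer to the same stress were examined as lists written with earlier results of these data known. Over 7 lists, 61 of 63 genes were measured, and 0 of them were called by edgeR's quasi-likelihood test or by DESeq2, and 0 had an unadjusted p under 0.05 in the former. Of these genes 41 had a log2 fold change above 0, and 3 had Yap-shRNA muscles above all control muscles (Dnaja1, Hspa5 and Pdia6), against 2.56% of all genes, with 0 below, against 2.71%. Of the 9 genes of chaperone-assisted selective autophagy, 6 were above 0, with a median of 0.09. The filamin gene Flnc, a client of Bag3, was at 754.4, 557.8 and 561.3 CPM in the controls, with 626.2, 794.6 and 861.3 CPM after Yap knockdown, where control 1 lay among the Yap-shRNA values (log2 fold change 0.28, standard error 0.16). Like Hspb7, Flnc was highest in control 1 among the controls and in Yap-shRNA 3 among the Yap-shRNA muscles. So were the summed matrix genes and the summed genes of slow and of regenerating fibres. Synpo2, which links Bag3 to the filamin sites, was at -0.09 (standard error 0.11), and the autophagy receptor gene Sqstm1 at 0.10 (standard error 0.10).

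The Hippo genes whose products bind the WW domain of Bag3 had log2 fold changes of 0.10 for Lats1, 0.13 for Lats2, -0.05 for Amotl1 and 0.15 for Amotl2, with standard errors of 0.11 to 0.13. The 5 other Bag genes had a median of 0.0040, with Bag6 at 0.07 and Bag1 at -0.03. Of the other small heat shock genes listed, Hspb11 was measured at 2.47 ± 0.98 CPM in control muscles (SD, n = 3), and Cryaa and Hspb9 were not in the table analysed.

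Genes of the heat shock response had a median log2 fold change of 0.08, and 15 of 18 were above 0. The most abundant was Hsp90ab1, a cytosolic Hsp90, with 917.6 ± 34.7 CPM in control and 978.6 ± 58.5 CPM in Yap-shRNA muscles (SD, n = 3; log2 fold change 0.09, standard error 0.09). Hsf1, the factor that drives the response, was at 63.2 ± 8.25 and 63.4 ± 3.09 CPM (SD, n = 3). The inducible Hsp70 genes Hspa1a and Hspa1b, named here after their values were seen, had 13 to 16 and 13 to 17 counts per control library and 11 to 21 and 17 to 25 per Yap-shRNA library, with standard errors of 0.33 and 0.30 on their log2 fold changes. They are near-identical copies, so their reads may have been divided between them or lost. ER chaperones had a median of 0.05, and Hspa5, the Hsp70 of the endoplasmic reticulum, was at 161.7 ± 1.52 and 174.5 ± 2.74 CPM (SD, n = 3), with all Yap-shRNA muscles higher (log2 fold change 0.11, standard error 0.08). Among Z-disc and filament genes 4 of 11 were above 0, with a median of -0.03, and Des, the gene of desmin, was at 3565 ± 342 and 3611 ± 112 CPM (SD, n = 3).

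**Figure D4:**
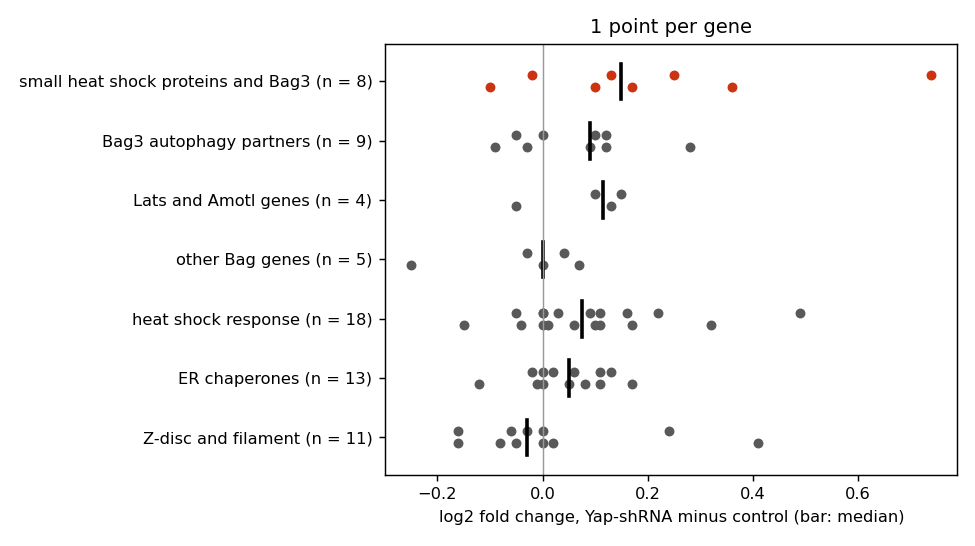
Log2 fold change, Yap-shRNA minus control (x axis), of each gene (points) of the small heat shock group in red and of 6 lists of partner and chaperone genes in grey, with the median of each list as a bar. The point of Hspb7 at 0.74 lies beyond all grey points, the highest of which is Hspa1b at 0.49. As the group was chosen with the difference of Hspb7 known, this place carries no test. Lists of fibre and cell type markers are not drawn, and those of regenerating and slow fibres reach 1.05 and 0.88.

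Of the marker lists, the macrophage genes ranked the muscles of both groups as Hspb7 did. The summed macrophage genes were at 237.1, 148.2 and 101.3 CPM in the controls, with 172.8, 205.2 and 222.5 CPM after Yap knockdown. All 10 macrophage genes were above 0, with a median of 0.29, and 0 were called. Control 1 had the highest macrophage sum of the 6 muscles and a level of Hspb7 below each Yap-shRNA muscle. The fibroblast and tendon genes, 5 of 10 above 0, were highest in control 1 and Yap-shRNA 3. In these 2 muscles Hspb7 was highest within its group. The same list summed to 1355 and 1329 CPM in Yap-shRNA 1 and 2, where Hspb7 stood at 487.2 and 666.1 CPM. Slow fibre genes, 3 of 8 of them above 0, summed to 178.6 to 202.8 CPM in the controls and to 142.0 to 206.9 CPM with Yap-shRNA, and 0 of the 10 fast fibre genes were above 0, with a median of -0.14. Of the genes of smooth muscle 1 of 7 was above 0, and without Des they summed to 253.4 to 392.0 and 220.8 to 293.2 CPM. Endothelial genes, 5 of 7 above 0, summed to 385.6 to 452.8 and 400.2 to 431.5 CPM, and those of regenerating fibres, 4 of 7 above 0, to 54.3 to 79.2 and 46.5 to 93.5 CPM. The part of these differences in the values of Hspb7 was not tested, and in whole muscle more cells of a type and more RNA per cell cannot be told apart.

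**Figure D5:**
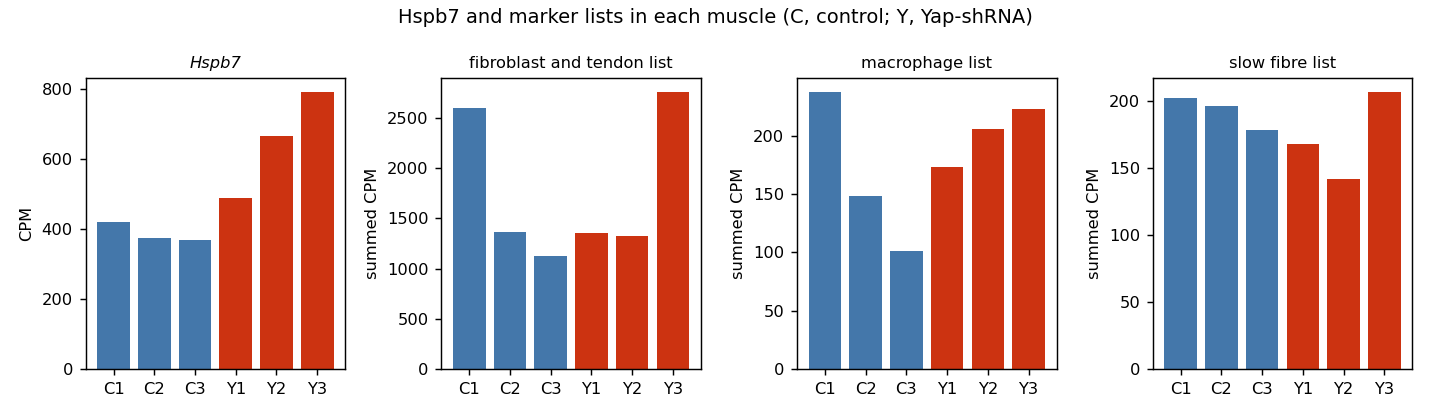
Hspb7 and the summed marker genes of fibroblasts and tendon, macrophages and slow fibres (y axes in CPM from 0) in the 6 muscles, control (C) in blue and Yap-shRNA (Y) in red. Control 1 is the highest muscle in macrophage genes and, after Yap-shRNA 3, in matrix genes. For Hspb7, control 1 lies below each Yap-shRNA muscle.

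The genes with the profile nearest to that of Hspb7 over the 6 muscles, by the root mean square difference of centred log2 CPM among 7264 genes of at least 10 CPM, were Klf4 (0.137), Csf1 (0.158), Srxn1 (0.175), Tubb6 (0.181) and Tnfrsf12a (0.181). The profile of Hspb7 itself had a root mean square of 0.417, and the log2 fold changes of these 5 genes were 0.50 to 0.61. Klf4 encodes a zinc finger transcription factor, Csf1 the growth factor of macrophages, Srxn1 an antioxidant enzyme, Tubb6 a beta-tubulin and Tnfrsf12a the receptor of the cytokine Tweak. Nearest to Bag3 were Sympk (0.016), Arhgef7 (0.023), Thumpd3 (0.024), Hsp90ab1 (0.028) and Gm3531 (0.028), around a profile that was nearly flat (root mean square 0.066). Nearest to the mean of the 8 genes (root mean square 0.120) were Ppme1 (0.050), Hdac4 (0.053), Cdh15 (0.053), Pigt (0.053) and Nprl3 (0.055).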

How the data were processed

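Polyadenylated RNA of 6 TA muscles was sequenced from TruSeq libraries. The authors deposited raw read counts per gene for 13226 genes, and the smallest total over the libraries was 60. The submitters' processing notes name bcl2fastq 2.20.0.422 and GRCm38, and the aligner, counter and strand setting are not given in the sources used here. All 6 columns were matched to a sample by name.

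The main test was the quasi-likelihood test of edgeR 4.0.16 on TMM-scaled counts (group as the only term, Benjamini-Hochberg adjustment over all genes, threshold 0.05) in R 4.3.3, after a check on simulated counts. Standard errors follow from each log2 fold change and its F statistic. DESeq2 1.42.0, the likelihood ratio test, limma 3.58.1 (voom), upper-quartile scaling, count filters, a replicate block and the removal of muscles were alternatives. Gene positions and lengths came from GENCODE M21, and promoters from RefSeq on GRCm38.p6.

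The members and lists were chosen with earlier results of these data known. Besides Yap1 and the members, genes were named when called, when among the 4 most abundant of a list, or when among the 5 nearest in profile. Genes outside that rule were named after their values were seen. P-values set the difference between groups against the spread of muscles within groups. The main test took the 6 muscles as independent, although the records place both vectors in opposite legs of the same animals.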

Additional observations from a re-analysis of the deposited data

How the results depend on the processing

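Over 14 alternative settings Hspb1, Hspb7, Hspb8, Cryab and Bag3 stayed above 0. Hspb2 was above 0 under 1, Hspb3 under 3 and Hspb6 below 0 under 1, the setting that left out control 1 and Yap-shRNA 3, chosen after seeing the data. There Hspb6 was at -0.05, the median of the 8 genes at 0.081 against 0.15 (0.085 without Yap-shRNA 3 alone), and 3 genes of the table were called. Over the fits without 1 muscle the value ranged from 0.58 to 0.91 for Hspb7 and from 0.24 to 0.43 for Cryab. DESeq2 and the likelihood ratio test each called 5 genes of the table. Yap1 (-1.10) was among both, with adjusted p of 5.85e-07 by DESeq2 and 2.22e-06 by the likelihood ratio test. Hspb7 was called by DESeq2 and under no other of the 14 settings. The log2 fold change of Yap1 without 1 muscle was -1.29 to -0.93, with adjusted p of at least 0.106 by edgeR. Without 1 muscle the table had 0 to 1 called genes, the 1 arising without Yap-shRNA 3, and 0 to 2 of the 8 genes changed place in the order of levels, where Hspb1 and Hspb3 traded places without Yap-shRNA 2. With the replicate block Yap1 was at -1.13 (adjusted p 0.105 by edgeR) and 0 genes were called. The numbers were not taken as pairs because the records do not say that a shared number marks an animal. Deviations of same-numbered muscles correlated at -0.065, 0.196 and -0.315, which cannot show whether these muscles were paired. With a floor of 1 CPM, 2 of the 5 genes nearest to Hspb7 and 1 of those nearest to the mean were the same. In the 250 bases before the start alone, the heat shock element was in 3 genes (6.69% of all windows) and the TEAD motif in 1 (12.6% of all windows). The causes were not tested.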
